A study of Mus musculus with 20 samples.

Results

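The HOX cluster genes were followed across 7 clonal fibroblast lines, 4 labelled preadipose and 3 labelled non-adipogenic. Members were the probe sets whose only gene symbol in the platform annotation was Hox, a cluster letter from a to d and a paralog number. The rule took 48 of the 45101 probe sets on the array, for 33 of the 18193 genes that could be tested. HOX genes without such a probe set were not members. Where a gene had several probe sets, as 11 of the 33 did, it was represented by the one with the highest mean over all arrays.

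All lines were clones of Swiss 3T3, an immortalized mouse embryonic fibroblast line, so each line is 1 clone and a class is a small set of clones. Preadipose clones are committed to become fat cells when induced, and the series was titled as a search for genes characteristic of that commitment. Swiss 2, Swiss 8 and Swiss 9 (3 arrays each) and Swiss 19 (2 arrays) formed the preadipose class, and Swiss 3, Swiss 5 and Swiss 22 (3 arrays each) the non-adipogenic class. Every line was untreated, grew in DMEM and bovine serum under non-differentiating conditions, and was collected while still dividing.

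HOX genes encode homeodomain transcription factors that give cells of the embryo their position along the head to tail axis and, later, along the limb. In the mouse they lie in 4 clusters, HoxA on chromosome 6, HoxB on chromosome 11, HoxC on chromosome 15 and HoxD on chromosome 2, and genes of the same paralog number in different clusters descend from 1 ancestral gene. Low paralog numbers lie at the 3' end of a cluster and are used in the head and neck, and the highest, up to 13, at the 5' end and are used in the tail and the ends of the limbs. Cultured fibroblasts are known to keep HOX expression patterns that reflect the site in the body from which they were taken.

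The arrays differed in overall brightness, with a mean intensity from 25.6 to 156.7, so levels are given as scaled intensity, in which each array has a trimmed mean of 500. A line was called above background for a gene when its mean scaled intensity exceeded the 95th percentile of 27 bacterial control probe sets with no matching spiked RNA, which lay between 76.9 in Swiss 19 and 144.4 in Swiss 2. Judged by their hybridization spikes, 11 arrays were dim (all of Swiss 2, Swiss 8 and Swiss 9 and 2 of Swiss 3) and 9 were bright, so brightness moved with the class but did not coincide with it. All 9 fibroblast markers were above background in all 7 lines. Of the markers of other cell types, Ptprc (leukocyte), Cdh1 (epithelial), Pecam1 (endothelial), Sox2 (neural) and Myog and Myf5 (skeletal muscle) were above background in no line. Those above it in all 7 were 3 of 5 leukocyte (Csf1r, Cd68 and Adgre1) and 2 of 5 epithelial (Epcam and Krt8) markers. So were 1 of 5 neural (Sox10), 1 of 4 muscle (Des) and 0 of 4 endothelial markers. Kdr and Cdh5 (endothelial) and Gfap and Map2 (neural) were above it in 6 lines. The summed leukocyte marker level was 1017 to 1400 in preadipose lines and 908.4 to 1180.0 in non-adipogenic lines, the epithelial 810.0 to 1158 and 789.0 to 1260.3, the endothelial 347.9 to 539.1 and 455.9 to 693.4, the neural 690.9 to 879.7 and 520.0 to 839.1, and the muscle 282.0 to 486.3 and 275.5 to 355.1. The part of other cells in the HOX values was not tested. In bulk RNA, fewer cells that use a gene and less RNA per cell cannot be told apart.

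Of the 33 HOX genes, 13 were above background in all 7 lines, where 56.3% of all genes were. A further 11 were above it in 1 to 6 lines, against 27.1% of all genes, and 9 in none, against 16.6%. These counts differed from cluster to cluster. In HoxA, 6 of 9 genes were above background in all 7 lines (Hoxa2, Hoxa3, Hoxa4, Hoxa5, Hoxa9 and Hoxa11), the other 3 (Hoxa7, Hoxa10 and Hoxa13) in some, and none was below it throughout. In HoxB, 3 of 9 were above it in all lines (Hoxb2, Hoxb3 and Hoxb4), 4 in some (Hoxb1, Hoxb6, Hoxb7 and Hoxb9) and 2 in none (Hoxb5 and Hoxb13). In HoxC, Hoxc6 and Hoxc13 were above it in all lines, Hoxc9 in 2, and the 4 others of 7 (Hoxc4, Hoxc5, Hoxc8 and Hoxc10) in none. In HoxD, Hoxd8 and Hoxd9 were above it in all lines, 3 of 8 in some (Hoxd3, Hoxd10 and Hoxd13) and 3 in none (Hoxd1, Hoxd11 and Hoxd12). By paralog number, 4 of 7 genes of groups 1 to 3, 5 of 12 of groups 4 to 8 and 4 of 14 of groups 9 to 13 were above background in all lines. These counts are a description with no test.

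Each line had between 14 and 19 HOX genes above background, namely 14 in Swiss 2, 17 in both Swiss 8 and Swiss 19, 18 in both Swiss 9 and Swiss 22, and 19 in both Swiss 3 and Swiss 5. That is 42.4% to 57.6% of the HOX genes, against 64.4% to 71.9% of all genes in the same lines. Swiss 2, with the lowest count, also had the highest background and the dimmest arrays.

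**Figure D1:**
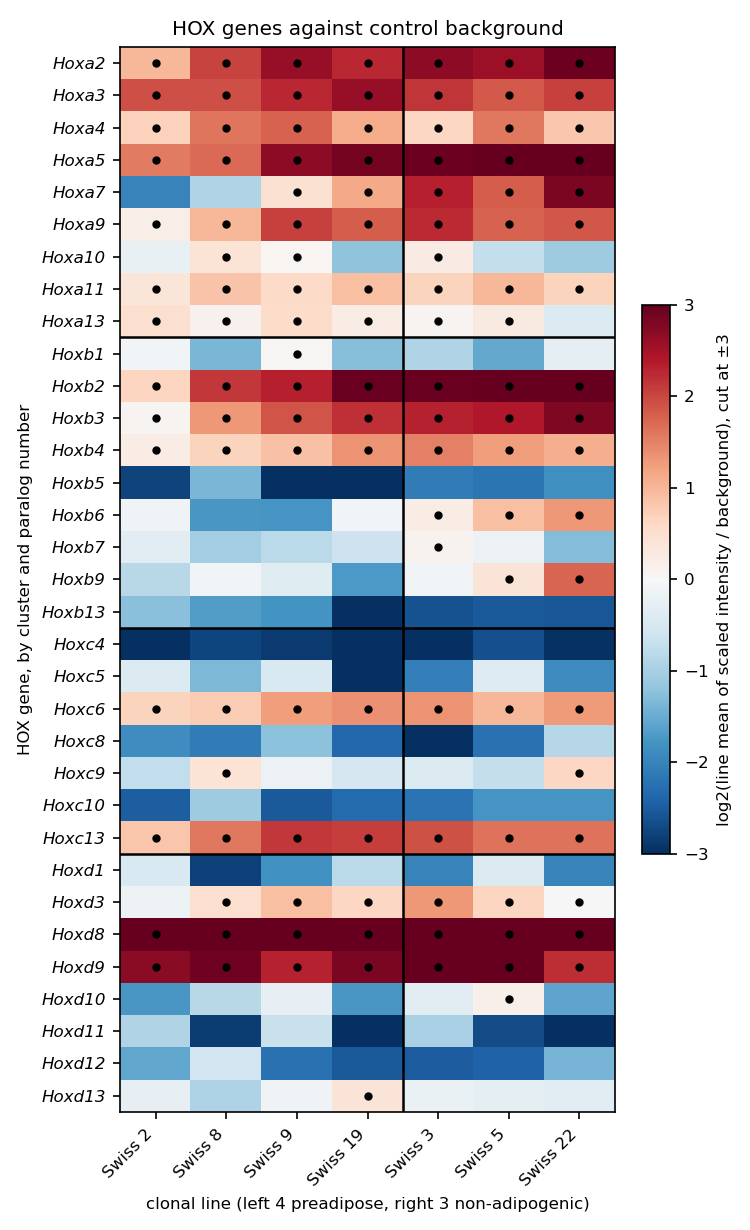
Line mean of scaled intensity over the control background, as log2 with the colour limited at ±3, for the 33 measured HOX genes (rows, by cluster and paralog number) in the 7 lines (columns, the 4 preadipose lines left of the vertical line). A black dot marks a line above background. HoxA is the cluster in which no gene lacks a dot, and 4 of 7 HoxC genes have none.

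One HOX gene, Hoxa7, differed between the classes in the limma fit to the 7 line means, with p-values adjusted by Benjamini-Hochberg over every gene tested, and it was lower in the preadipose lines. Over all genes the same rule called 0.951% lower and 0.583% higher. Hoxa7 belongs to the middle of the HoxA cluster and helps to pattern the trunk. On the preadipose arrays its scaled intensity was 16.9, 66.7 and 24.6 in Swiss 2, 65.9, 25.0 and 69.4 in Swiss 8, 176.6, 57.8 and 121.3 in Swiss 9, and 216.6 and 118.8 in Swiss 19. On the non-adipogenic arrays it was 376.4, 614.7 and 598.4 in Swiss 3, 341.3, 180.9 and 385.9 in Swiss 5, and 628.3, 516.6 and 685.9 in Swiss 22. Swiss 2 and Swiss 8 lay below background, Swiss 9 and Swiss 19 above it, and all non-adipogenic line means above every preadipose line mean, although 1 array of Swiss 5 read below 1 array of Swiss 19.

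Hoxa7 averaged 93.9 ± 60.7 (SD, n = 4 lines) in the preadipose class and 480.9 ± 159.5 (SD, n = 3 lines) in the other. With the lines below background set to background, preadipose lines were lower by at least 3.62-fold. The fitted log2 difference was -0.74 ± 0.13 (SE), with a limma adjusted p of 0.0441, on the log2(intensity + 32) scale, which understates the change of dim genes. The call sat close to the threshold and did not pass with a pseudocount of 100 (adjusted p = 0.0665) or with brightness as a block (-0.70, adjusted p = 0.0525). The difference was -0.81 within the dim arrays, where Swiss 3 is the only non-adipogenic line, and -0.58 within the bright arrays, where Swiss 19 is the only preadipose line (adjusted p = 0.0581 and 0.581). With 1 line in a class, a p that misses the threshold there does not show that the call fails. The call was lost in 6 of the 7 fits that each left out 1 line (limma adjusted p between 0.0534 without Swiss 5 and 0.157 without Swiss 22) and held without Swiss 19 (adjusted p = 0.0385), while the difference stayed negative in each of these fits. It was also lost without array 2 of Swiss 9 (0.0519), array 1 or 3 of Swiss 5 (0.0550 and 0.0605) or array 2 of Swiss 19 (0.0654).

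**Figure D2:**
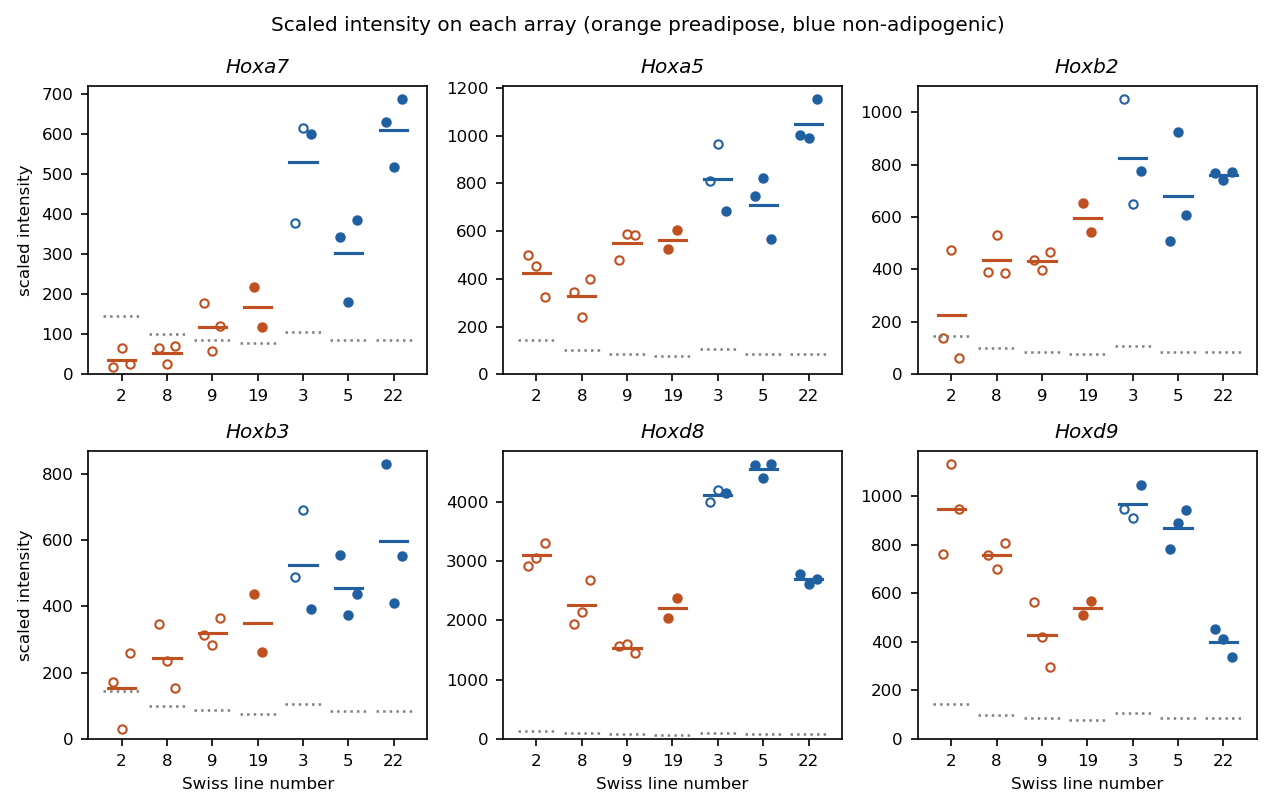
Scaled intensity on each of the 20 arrays for 6 HOX genes, by Swiss line number, on linear axes that start at 0. Circles are arrays (open, dim by the hybridization spikes; filled, bright), orange for preadipose and blue for non-adipogenic lines, horizontal bars are line means and dotted bars the control background of the line. Hoxa7 line means run from 36.0 to 167.7 in preadipose and from 302.7 to 610.2 in non-adipogenic lines, while Hoxd9 line means of the classes overlap.

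The sequences just upstream are shown for the 5 genes with a RefSeq window out of the 9 whose levels differed among the 7 lines by limma's F test, so that letters of known factor sites can be read beside the values. Each is the 250 bases before the annotated start, 5′ to 3′ on the gene's strand, from RefSeq on GRCm38.p6. Hoxa7 lies at chr6:52218574-52218823, Hoxa5 at chr6:52204588-52204837 and Hoxa2 at chr6:52164832-52165081, all on the minus strand, and Hoxd8 at chr2:74704365-74704614 and Hoxd9 at chr2:74697513-74697762 on the plus strand. Capitals mark matches on either strand to TTTATG (a CDX core), TGACAG (a MEIS and PKNOX core), TGATTNAT (a PBX-HOX composite), AGGTCA (a nuclear receptor half-site), CCAAT (the CCAAT box) and GGGCGG (the GC box), and TAATTA (a homeodomain core) and TATAAA (the TATA box) were searched too and not found in these 5 windows.
Hoxa7: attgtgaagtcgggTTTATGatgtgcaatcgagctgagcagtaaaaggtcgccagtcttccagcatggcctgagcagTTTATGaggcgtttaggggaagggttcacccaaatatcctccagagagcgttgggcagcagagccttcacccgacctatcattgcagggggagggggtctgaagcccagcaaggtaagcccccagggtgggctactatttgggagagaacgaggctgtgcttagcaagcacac
Hoxa5: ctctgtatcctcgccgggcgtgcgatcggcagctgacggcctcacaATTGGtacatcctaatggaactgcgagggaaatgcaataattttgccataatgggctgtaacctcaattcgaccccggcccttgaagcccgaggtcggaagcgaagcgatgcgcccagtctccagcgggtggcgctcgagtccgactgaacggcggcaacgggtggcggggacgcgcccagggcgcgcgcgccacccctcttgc
Hoxa2: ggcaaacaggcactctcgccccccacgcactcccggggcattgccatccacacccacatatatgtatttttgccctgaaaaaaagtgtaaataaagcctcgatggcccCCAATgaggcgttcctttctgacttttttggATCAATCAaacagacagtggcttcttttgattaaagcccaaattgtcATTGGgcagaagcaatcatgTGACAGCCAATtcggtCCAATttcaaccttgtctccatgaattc
Hoxd8: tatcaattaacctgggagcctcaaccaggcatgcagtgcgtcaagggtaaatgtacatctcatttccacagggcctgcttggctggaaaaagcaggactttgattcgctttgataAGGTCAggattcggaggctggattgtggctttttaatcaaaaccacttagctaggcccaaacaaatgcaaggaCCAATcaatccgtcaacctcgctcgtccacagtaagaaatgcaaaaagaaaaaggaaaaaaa
Hoxd9: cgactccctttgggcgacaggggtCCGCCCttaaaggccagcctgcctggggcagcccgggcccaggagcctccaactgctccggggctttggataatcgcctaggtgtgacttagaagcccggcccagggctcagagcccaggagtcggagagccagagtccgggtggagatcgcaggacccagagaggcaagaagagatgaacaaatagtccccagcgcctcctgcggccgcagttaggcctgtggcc

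In the Hoxa7 window TTTATG occurred at 236 and 173 bases before the start, a sequence present in 10.8% of all 32851 windows and in 3 of 21 HOX windows. In the Hoxa2 window TGACAG stood 44 bases before the start (15.9% of all windows, 2 of 21 HOX windows), the reverse complement of TGATTNAT at 111 bases (2.82% of all, 2 of 21 HOX), and CCAAT or its reverse complement at 142, 64, 38 and 28 bases, the third directly after TGACAG with no overlap. CCAAT was present in 33.8% of all windows and 11 of 21 HOX windows, AGGTCA, seen 135 bases before the Hoxd8 start, in 14.0% and 5 of 21, and GGGCGG, seen as its reverse complement 226 bases before the Hoxd9 start, in 32.7% and 8 of 21. TAATTA was present in 4.84% of all windows and 2 of 21 HOX windows, and TATAAA in 12.4% and 2 of 21. The 21 windows belong to 19 of the 33 measured genes and had a median GC content of 59.2%, against 52.4% for all windows. A match is a description of the letters and not a bound site.

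No other HOX gene passed the adjusted threshold between classes, and the differences below are given as values. At an unadjusted p under 0.05, 8 of 33 HOX genes were lower in preadipose lines, where 8.45% of all genes were, and 0 were higher, against 7.17% of all genes. Besides Hoxa7 these were Hoxa2, Hoxa5, Hoxb2, Hoxb3, Hoxb4, Hoxb6 and Hoxd8, which come from the A, B and D clusters and have paralog numbers from 2 to 8. In 6 of the 8 (all but Hoxa2 and Hoxd8) every preadipose line mean of normalized log2 lay below every non-adipogenic one, a separation seen in 7.53% of all genes, and 0 HOX genes were separated the other way, against 6.39%. On scaled intensity, a scale added after the data were seen, 5 HOX genes were separated this way, against 7.03% of all genes. Hoxa5, Hoxa7, Hoxb2 and Hoxb3 were separated on both scales, Hoxb4 and Hoxb6 only on normalized log2 and Hoxb9 only on scaled intensity. Over the 33 genes 20 differences were negative, against 48.6% of all genes, and 13 positive, with a median of -0.0077 (log2) against 0.0033 for all genes. At an unadjusted p under 0.05, 5 were lower within the dim arrays, against 10.1% of all genes, and 1 higher, against 9.27%. In the bright arrays 1 was lower, against 4.28%. With spike level as a covariate 3 were lower, against 7.46% of all genes, and 3 with arrays centred on their medians, against 3.51%. Without normalization between arrays all 33 were negative, as were 90.6% of all genes, and the median of all genes moved to -0.19. Relative to genes of like level the difference of Hoxa7 was then -0.69, against -0.73 after quantile normalization. Among the 13 HOX genes above background in all lines 10 were negative, with a median of -0.15 and an unadjusted p under 0.05 in 6, which is 46.2% against 23.8% of all genes detected as widely.

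**Figure D3:**
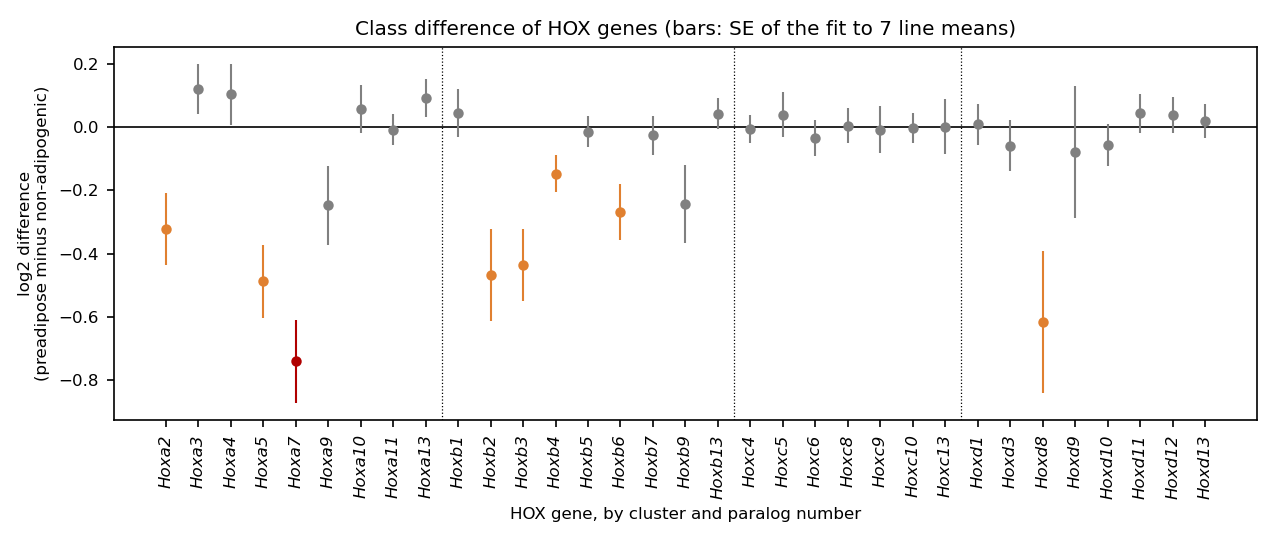
Log2 difference between preadipose and non-adipogenic lines for each of the 33 HOX genes, ordered by cluster and paralog number, with bars for the standard error of the fit to 7 line means. Red marks Hoxa7, the gene past an adjusted p of 0.05 (-0.74), orange an unadjusted p under 0.05, and grey the other genes. No gene above 0 is coloured.

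In the HoxA cluster, Hoxa5, which acts in the formation of the lung and the cervical skeleton, had the largest difference after Hoxa7. Its scaled intensity on preadipose arrays was 500, 452.6 and 323.8 in Swiss 2, 345.8, 238.7 and 397.7 in Swiss 8, 480.8, 588.6 and 584.9 in Swiss 9, and 524.1 and 604.2 in Swiss 19. The non-adipogenic arrays gave 809.4, 967.1 and 683.5 in Swiss 3, 745.5, 821.5 and 566.1 in Swiss 5, and 1002, 991.4 and 1155 in Swiss 22. Swiss 22 was the highest line and Swiss 8 the lowest, with no overlap between the line means of the classes. The preadipose mean was 467.1 ± 112.2 (SD, n = 4 lines) against 860.2 ± 172.8 (SD, n = 3 lines) in the other class, a 1.84-fold difference, with a log2 difference of -0.49 ± 0.12 (SE) and a limma adjusted p of 0.0903. A second Hoxa5 probe set went against it. That probe set had a log2 difference of 0.13, line means from 393.8 in Swiss 3 to 679.8 in Swiss 9, and a correlation of -0.39 with the first over the 7 lines. The suffix of its identifier (_x_at) marks probes that may also match other sequences.

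Hoxa2, which patterns the second branchial arch and the hindbrain, was above background on each of the 20 arrays. It read 354.7, 333.3 and 172.1 in Swiss 2, 400.7, 375.1 and 459.0 in Swiss 8, 600.3, 489.5 and 504.7 in Swiss 9, and 368.1 and 364.0 in Swiss 19 on the preadipose arrays. Hoxa2 read 853.7, 542.3 and 655.6 in Swiss 3, 570.4, 418.6 and 526.9 in Swiss 5, and 615.7, 534.2 and 827.9 in Swiss 22 on the non-adipogenic arrays. Swiss 2 was the lowest line and Swiss 3 the highest, and Swiss 9 of the preadipose class lay above Swiss 5 of the other, so the classes overlapped. Preadipose lines averaged 399.0 ± 102.3 (SD, n = 4 lines) and the others 616.1 ± 96.7 (SD, n = 3 lines), with a log2 difference of -0.32 ± 0.11 (SE) and a limma adjusted p of 0.232.

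Hoxa9, known for its part in blood stem cells and leukaemia, had a like sign with more spread between arrays. Its preadipose arrays read 81.1, 270.2 and 143.4 in Swiss 2, 82.3, 115.9 and 400.3 in Swiss 8, 228.2, 392.4 and 446.0 in Swiss 9, and 232.1 and 309.7 in Swiss 19. Its non-adipogenic arrays read 469.9, 387.3 and 652.8 in Swiss 3, 281.3, 156.7 and 441.7 in Swiss 5, and 341.3, 208.3 and 392.5 in Swiss 22. Swiss 9 exceeded Swiss 5 and Swiss 22, so the classes overlapped. The log2 difference was -0.25 ± 0.13 (SE), with a limma adjusted p of 0.414. A second Hoxa9 probe set had line means of 72.3, 44.7, 9.2 and 26.5 in Swiss 2, 8, 9 and 19. In Swiss 3, 5 and 22, the 3 lines where it was above background, it had 171.4, 136.0 and 109.3. These line means did not overlap between classes. Its log2 difference was -0.28, and its correlation with the first was 0.40 over the 7 lines.

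Hoxa3 and Hoxa4 differed from these neighbours in sign by their brightest probe sets, and neither was called. Hoxa3, needed for the thymus and parathyroid, was above background on each of the 20 arrays, and Hoxa4 on 19. Hoxa3 read 679.0, 561.4 and 401.6 in Swiss 2, 466.6, 331.9 and 355.0 in Swiss 8, 535.1, 332.5 and 373.6 in Swiss 9, and 479.5 and 457.6 in Swiss 19. In the other class Hoxa3 read 568.3, 469.8 and 376.6 in Swiss 3, 282.3, 240.9 and 402.5 in Swiss 5, and 312.9, 408.8 and 336.2 in Swiss 22. Its log2 difference was 0.12 ± 0.08 (SE), with a limma adjusted p of 0.549, and the classes overlapped. The other Hoxa3 probe sets had 0.02, -0.04 and 0.09, so the sign depended on the probe set. Hoxa4 read 182.4, 364.9 and 155.7 in Swiss 2, 216.8, 527.4 and 173.5 in Swiss 8, 198.3, 347.0 and 340.4 in Swiss 9, and 175.5 and 155.5 in Swiss 19. In the other class Hoxa4 read 169.8, 72.5 and 248.3 in Swiss 3, 274.4, 265.1 and 226.2 in Swiss 5, and 128.9, 165.2 and 157.7 in Swiss 22. Its log2 difference was 0.10 ± 0.10 (SE), with a limma adjusted p of 0.720, and single arrays of Swiss 8 spread from 173.5 to 527.4. Hoxa11, which patterns the forearm with its paralogs, had line means from 127.9 to 184.9 and a preadipose mean of 159.0 ± 27.9 (SD, n = 4 lines) against 158.4 ± 19.0 (SD, n = 3 lines), a log2 difference of -0.01 ± 0.05 (SE).

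The posterior HoxA genes Hoxa10 and Hoxa13 lay near background. Hoxa10, which acts in the uterus and hindlimb, was above it in Swiss 8, Swiss 9 and Swiss 3, and Hoxa13, which acts in digits and the urogenital tract, in all lines but Swiss 22. Hoxa10 read 50.7, 164.9 and 155.7 in Swiss 2, 35.7, 150 and 216.2 in Swiss 8, 40.7, 72.3 and 158.5 in Swiss 9, and 48.6 and 17.7 in Swiss 19. Hoxa10 gave 162.4, 172.4 and 41.8 in Swiss 3, 99.3, 8.4 and 49.0 in Swiss 5, and 30.3, 71.2 and 20.7 in Swiss 22 in the other class. The arrays of Swiss 8 alone ran from 35.7 to 216.2, wider than the range of the line means, from 33.1 to 134.0. A second Hoxa10 probe set was above background in 2 lines, Swiss 8 (112.3) and Swiss 22 (115.8). Its log2 class difference was -0.10 against 0.06, and its correlation with the one used was 0.03 over the 7 lines. Hoxa13 read 135.1, 259.6 and 213.1 in Swiss 2, 134.5, 111.4 and 82.7 in Swiss 8, 144.0, 92.9 and 140.9 in Swiss 9, and 89.2 and 89.7 in Swiss 19. Hoxa13 gave 137.8, 17.5 and 181.3 in Swiss 3, 65.9, 106.2 and 139.1 in Swiss 5, and 79.6, 45.1 and 64.2 in Swiss 22 in the other class. Swiss 2 was the highest line for Hoxa13, where the background was also highest, and neither gene differed among the 7 lines by limma's F test (adjusted p = 0.520 for Hoxa10 and 0.372 for Hoxa13).

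In the HoxB cluster the 3 genes detected in all lines were neighbours by paralog number, and all had lower values in preadipose lines that missed the adjusted threshold. Hoxb2, which acts in the hindbrain and facial nerve, was above background on 18 of 20 arrays. It read 138.5, 473.7 and 61.5 in Swiss 2, 389.7, 531.9 and 387.0 in Swiss 8, 434.6, 396.6 and 467.5 in Swiss 9, and 654.4 and 541.6 in Swiss 19 in preadipose lines. Hoxb2 read 1051, 649.7 and 776.9 in Swiss 3, 507.5, 925.6 and 609.2 in Swiss 5, and 769.2, 739.9 and 773.6 in Swiss 22 in non-adipogenic lines. The 2 arrays below their background were both of Swiss 2, whose other array read 473.7, and the line means did not overlap between classes. Hoxb2 had a preadipose mean of 422.9 ± 153.1 (SD, n = 4 lines) against 755.8 ± 72.6 (SD, n = 3 lines) in the other class, a 1.79-fold difference, with a log2 difference of -0.47 ± 0.15 (SE) and a limma adjusted p of 0.177.

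Hoxb3, which acts in the hindbrain and thyroid, read 172.3, 31.6 and 258.2 in Swiss 2, 345.8, 234.1 and 154.8 in Swiss 8, 315.1, 285.0 and 363.9 in Swiss 9, and 436.7 and 261.7 in Swiss 19. Its non-adipogenic arrays gave 489.6, 689.7 and 392.0 in Swiss 3, 554.7, 374.5 and 438.8 in Swiss 5, and 829.3, 410.8 and 551.7 in Swiss 22. Again the line means did not overlap, and Swiss 2 was the lowest line and Swiss 22 the highest. The preadipose mean was 267.4 ± 87.5 (SD, n = 4 lines) against 525.7 ± 70.7 (SD, n = 3 lines) in the other class, a 1.97-fold difference, with a log2 difference of -0.44 ± 0.11 (SE) and a limma adjusted p of 0.116. The second Hoxb3 probe set pointed the same way, with a log2 difference of -0.69 and a correlation of 0.90 with the first over the 7 lines, which share the arrays and normalization. Its line means were 61.5, 59.5, 236.1 and 144.1 in Swiss 2, 8, 9 and 19 and 652.4, 396.6 and 408.0 in Swiss 3, 5 and 22.

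Hoxb4, known for expanding blood stem cells, read 290.5, 45.6 and 172.1 in Swiss 2, 252.5, 15.9 and 205.5 in Swiss 8, 43.5, 198.3 and 234.8 in Swiss 9, and 161.8 and 226.3 in Swiss 19. Hoxb4 gave 132.9, 384.8 and 394.7 in Swiss 3, 191.8, 257.7 and 167.5 in Swiss 5, and 129.6, 190.7 and 231.2 in Swiss 22 in the other class. Single arrays of Swiss 2, Swiss 8 and Swiss 9 fell far below their partners, and arrays held 82.3% of the sum of squares of Hoxb4. The log2 difference was -0.15 ± 0.06 (SE), with a limma adjusted p of 0.278, and its second probe set had -0.05. Hoxb6, a trunk gene, was above background in the 3 non-adipogenic lines and in no preadipose line. It read 10.1, 242.1 and 147.5 in Swiss 2, 16.5, 68.2 and 5.3 in Swiss 8, 29.9, 22.7 and 23.5 in Swiss 9, and 66.3 and 79.6 in Swiss 19. Hoxb6 gave 145.2, 124.9 and 100.4 in Swiss 3, 36.4, 244.0 and 197.8 in Swiss 5, and 228.8, 144.3 and 259.8 in Swiss 22 in the other class. On scaled intensity the line means overlapped, with Swiss 2 at 133.3 above Swiss 3 at 123.5. On normalized log2 they lay in the other order by a narrow margin, at 5.30 in Swiss 2 and 5.31 in Swiss 3. The preadipose mean was 65.4 ± 50.1 (SD, n = 4 lines) against 164.6 ± 44.0 (SD, n = 3 lines) in the other class, at least a 1.61-fold difference, with a log2 difference of -0.27 ± 0.09 (SE) and a limma adjusted p of 0.193.

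Hoxb9, which acts in the thoracic skeleton, stood out in 1 line. Its preadipose values were 30.4, 168.4 and 45.1 in Swiss 2, 98.8, 68.2 and 117.4 in Swiss 8, 103.2, 16.5 and 82.2 in Swiss 9, and 14.9 and 31.6 in Swiss 19. In non-adipogenic lines it read 182.1, 15.0 and 104.6 in Swiss 3, 254.7, 51.5 and 28.4 in Swiss 5, and 303.4, 270.4 and 294.0 in Swiss 22. All 3 arrays of Swiss 22 lay above every other array of the 20, and Swiss 22 and Swiss 5 were the lines above background. The non-adipogenic lines differed in Hoxb9 by limma's F test (adjusted p = 0.0142), and without Swiss 22 the 7-line test no longer called it (adjusted p = 0.844). Hoxb1, which gives the fourth hindbrain segment its identity, was above background in Swiss 9 alone, at 88.4 against 86.3. It read 114.9, 98.2 and 196.7 in Swiss 2, 52.1, 18.2 and 45.4 in Swiss 8, 130.4, 105.3 and 29.3 in Swiss 9, and 60.6 and 3.2 in Swiss 19. Hoxb1 gave 66.4, 17.5 and 85.1 in Swiss 3, 11.8, 60.0 and 16.6 in Swiss 5, and 63.2, 75.8 and 71.4 in Swiss 22 in the other class. No difference among the lines was called for Hoxb1 (limma F test, adjusted p = 0.161). Hoxb7 was above background in Swiss 3 (113.9 against 105.9) and had line means from 34.7 to 115.4. Hoxb5 and Hoxb13 stayed below background, with line means up to 38.5 and 60.2.

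In the HoxC cluster the 2 genes detected in all lines were called neither between classes nor among lines. Hoxc13 acts in hair follicles and nails. It read 246.6, 154.4 and 364.7 in Swiss 2, 222.3, 354.6 and 320.3 in Swiss 8, 418.3, 280.9 and 432.3 in Swiss 9, and 364.1 and 288.2 in Swiss 19. Hoxc13 gave 349.4, 442.3 and 401.7 in Swiss 3, 289.2, 135.7 and 365.3 in Swiss 5, and 253.5, 276.2 and 264.1 in Swiss 22 in the other class. The preadipose mean was 314.4 ± 51.0 (SD, n = 4 lines) against 308.6 ± 77.3 (SD, n = 3 lines) in the other class, within each other's spread, with a log2 difference of 0.0016 and a limma F test among the 7 lines at an adjusted p of 0.380. Hoxc6, a thoracic gene, had line means from 169.7 in Swiss 8 to 271.4 in Swiss 3. Its log2 difference was -0.03 ± 0.06 (SE), and 1 array of Swiss 3 read 12.6 where the others read 509.3 and 292.4.

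Hoxc9, a thoracic gene that also acts in spinal motor neurons, was above background in Swiss 8 and Swiss 22. It read 87.8, 84.2 and 86.1 in Swiss 2, 52.1, 293.2 and 53.4 in Swiss 8, 135.8, 49.6 and 43.0 in Swiss 9, and 60.6 and 47.4 in Swiss 19. Hoxc9 gave 81.2, 65.0 and 93.5 in Swiss 3, 93.4, 24.2 and 40.2 in Swiss 5, and 30.3, 255.4 and 108.5 in Swiss 22 in the other class. In both lines a single array, 293.2 in Swiss 8 and 255.4 in Swiss 22, carried the line mean over background. Hoxc5 was above background in no line, though its line means ranged from 7.0 in Swiss 19 to 109.1 in Swiss 2. It read 246.6, 56.1 and 24.6 in Swiss 2, 5.5, 86.4 and 26.7 in Swiss 8, 5.4, 28.9 and 154.5 in Swiss 9, and 5.1 and 8.8 in Swiss 19. Hoxc5 gave 56.6, 10.0 and 9.8 in Swiss 3, 16.7, 17.9 and 161.6 in Swiss 5, and 6.3, 45.7 and 17.1 in Swiss 22 in the other class. Single arrays of Swiss 2, Swiss 9 and Swiss 5 were high and their partners low. Hoxc4, Hoxc8 and Hoxc10 had line means no higher than 15.0, 47.7 and 48.1.

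In the HoxD cluster, Hoxd8 and its neighbour Hoxd9, both trunk and limb genes, were above background on all 20 arrays and differed between clones of the same class. Hoxd8 read 2916, 3056 and 3307 in Swiss 2, 1943, 2132 and 2674 in Swiss 8, 1559, 1603 and 1449.6 in Swiss 9, and 2047 and 2369 in Swiss 19 on the preadipose arrays. On the non-adipogenic arrays Hoxd8 read 3988, 4198 and 4146 in Swiss 3, 4615, 4399.9 and 4627 in Swiss 5, and 2784, 2606 and 2693 in Swiss 22. Its arrays lay close together within each line. From the lowest line mean the order was Swiss 9, Swiss 19, Swiss 8, Swiss 22, Swiss 2, Swiss 3 and Swiss 5, so Swiss 2 of the preadipose class lay above Swiss 22 of the other, and Swiss 19 and Swiss 8 differed by less than the spread of their arrays. Hoxd8 had a preadipose mean of 2272 ± 637.3 (SD, n = 4 lines) against 3784 ± 968.6 (SD, n = 3 lines) in the other class, with a log2 difference of -0.62 ± 0.22 (SE) and a limma adjusted p of 0.238. The second Hoxd8 probe set had -0.71 and a correlation of 0.97 with the first over the 7 lines.

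Hoxd9 read 760.1, 1133 and 946.7 in Swiss 2, 757.5, 700.1 and 808.7 in Swiss 8, 565.0, 421.3 and 295.4 in Swiss 9, and 512.1 and 569.5 in Swiss 19 on the preadipose arrays. On the non-adipogenic arrays Hoxd9 read 947.2, 909.6 and 1045 in Swiss 3, 781.9, 887.8 and 942.2 in Swiss 5, and 453.8, 410.8 and 336.2 in Swiss 22. Swiss 9 and Swiss 22 were low, Swiss 2, Swiss 3 and Swiss 5 high, and each class held lines of both kinds. The preadipose mean was 667.5 ± 230.6 (SD, n = 4 lines) against 746.0 ± 303.3 (SD, n = 3 lines) in the other class, with a log2 difference of -0.08 ± 0.21 (SE) and a limma adjusted p of 0.929. Limma's F test called Hoxd9 among the preadipose lines (adjusted p = 0.000544) and among the non-adipogenic lines (adjusted p = 0.000122), and Hoxd8 likewise (adjusted p = 7.03e-06 and 1.63e-05). Over the 7 lines Hoxd8 and Hoxd9 had a Pearson r of 0.75 and a Spearman rho of 0.64, given as a description, since both come from the same arrays.

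Hoxd3, which acts in the neck vertebrae, was above background in all lines but Swiss 2. It read 118.2, 238.6 and 32.8 in Swiss 2, 145.5, 93.2 and 186.8 in Swiss 8, 353.1, 57.8 and 72.4 in Swiss 9, and 124.6 and 111.9 in Swiss 19. Hoxd3 gave 191.9, 344.9 and 249.7 in Swiss 3, 81.6, 209.3 and 113.6 in Swiss 5, and 97.3, 118.9 and 44.2 in Swiss 22 in the other class. In Swiss 9 a single array, 353.1, carried the line mean over background, and Swiss 22 was just above it, at 86.8 against 85.7. Swiss 3 was the highest line for Hoxd3. The log2 class difference of Hoxd3 was -0.06 ± 0.08 (SE), and no difference among lines was called (limma F test, adjusted p = 0.661). The posterior genes Hoxd10 to Hoxd13, which shape the limb and digits, were dim. Hoxd10 was above background in Swiss 5 (95 against 85.8) and Hoxd13 in Swiss 19 (99.8 against 76.9), Hoxd11 and Hoxd12 in no line, and the most anterior gene, Hoxd1, in none. Line means of Hoxd1, Hoxd11 and Hoxd12 reached 105.5, 77.9 and 67.2, each below the background of its line.

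Among the 7 lines, limma's moderated F test on the 20 arrays called 9 of 33 HOX genes (Hoxa2, Hoxa5, Hoxa7, Hoxb2, Hoxb3, Hoxb6, Hoxb9, Hoxd8 and Hoxd9), where it called 35.8% of all genes. None was in HoxC. Other scalings called more of all genes too, with 24 HOX genes against 75.3% of all genes when arrays were centred on their medians and 18 against 74.4% without normalization. The smallest adjusted p was that of Hoxd8 (5.31e-09), followed by Hoxa7 (8.14e-07), Hoxd9 (1.85e-05) and Hoxa5 (3.13e-05). Among the 4 preadipose lines 5 were called (Hoxa2, Hoxa5, Hoxb2, Hoxd8 and Hoxd9), against 23.2% of all genes, and among the 3 non-adipogenic lines 4 (Hoxa7, Hoxb9, Hoxd8 and Hoxd9), against 16.4%. Among the 13 HOX genes above background in all lines, the counts were 6, 5 and 2, beside 57.0%, 36.8% and 27.0% of all genes detected as widely. No label tells if the arrays of a clone were hybridized with RNA of different cultures, and these p-values therefore measure array spread alone, which may be technical. Leaving out single arrays moved the preadipose count to between 2 and 6, with 2 without array 1 or array 3 of Swiss 9 and 3 without array 3 of Swiss 2, array 1 or 2 of Swiss 8, array 2 of Swiss 9, any array of Swiss 22 or either array of Swiss 19. Without Swiss 22, 0 were called among the remaining non-adipogenic lines, and 2 without its array 1 or its array 3.

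The 9 genes fell into different patterns of variation. The share of the sum of squares of log2 values that lay between classes was 77.0% for Hoxa7, 64.4% for Hoxa5, 50.9% for Hoxb3, 46.7% for Hoxb2, 40.4% for Hoxa2 and 40.1% for Hoxb6, but 1.03% for Hoxd9. Lines of a class held 87.3% for Hoxd9, 48.8% for Hoxd8 beside 48.2% between classes, and 44.3% for Hoxb9. The median HOX gene had 5.05% at the level of the class, 27.2% at that of the line and 61.7% at that of the array, against 6.74%, 32.5% and 52.1% for all genes.

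**Figure D4:**
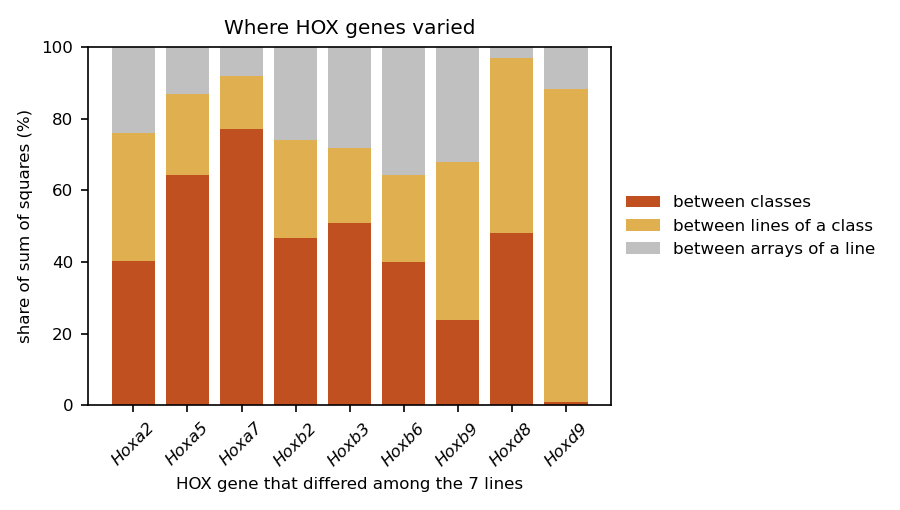
Share of the sum of squares of normalized log2 values, in percent, that lay between the classes (red), among the clones inside each class (yellow) and among arrays of the same clone (grey), for the 9 HOX genes that differed among the 7 lines. Hoxa7 has the highest share between classes (77.0%) of these 9 and Hoxd9 the lowest (1.03%).

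Line patterns were compared among the 13 genes above background in all lines, as a description over 7 lines that share arrays, normalization and classes. Hoxb2 and Hoxb3 were most alike (Pearson r 0.96, Spearman rho 0.93), followed by Hoxa5 and Hoxb3 (0.91 and 0.96). The 20 pairs within a cluster had a median r of -0.20 and the 58 pairs across clusters 0.18. All pairs within HoxB, HoxC and HoxD were positive (r from 0.46 to 0.96), so the negative pairs within a cluster were all in HoxA. Pairs of the same paralog number ran both ways. Hoxa2 and Hoxb2 had r 0.84 (rho 0.82), and Hoxa3 and Hoxb3 r -0.65 (rho -0.57). Hoxa4 and Hoxb4 had r -0.62 and Hoxa9 and Hoxd9 r -0.22. Of these genes Hoxa3, Hoxa4, Hoxa9 and Hoxb4 were not called among the lines.

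Of the cofactors that bind DNA with HOX proteins, the PBX, MEIS and PKNOX homeodomain proteins, 8 of 9 listed genes were measured and 7 were above background in all lines. By the class fit 2 of the 8 were lower in preadipose lines, against 0.951% of all genes, and 0 higher, against 0.583%. The median log2 difference was -0.07, against 0.0033 for all genes. A limma unadjusted p under 0.05 was seen in 3 of the 8. The share was 15.6% of all genes and 23.8% of genes above background in all 7 lines. Meis1 had line means of 519.2, 505.7, 675.3 and 649.3 in Swiss 2, 8, 9 and 19 and of 1221, 1043 and 1189 in Swiss 3, 5 and 22. Its classes did not overlap, with a log2 difference of -0.59 ± 0.08 (SE) and a limma adjusted p of 0.0201. Averaging the Meis1 probe sets in place of the brightest gave -0.25 (adjusted p = 0.108). Pknox1 had line means of 957.5, 974.4, 884.6 and 990.9 against 1441, 1334 and 1451, a log2 difference of -0.38 ± 0.05 (SE) and a limma adjusted p of 0.0233. Neither call held once spike level entered the fit (adjusted p = 0.0743 for each). Both were lost with arrays centred on their medians (limma adjusted p = 0.910 for each) and without normalization between arrays (0.883 for each). Scaling before the pseudocount gave 0.0702 for Meis1 and 0.198 for Pknox1, and a pseudocount of 8 gave 0.0766 for Pknox1. Meis1 and Pknox1 each passed in 6 of 13 alternative settings. Within the dim arrays the differences were -0.73 and -0.40 (0.0674 and 0.114) and within the bright arrays -0.50 and -0.38 (0.320 and 0.445), again with a single line in 1 class. Leaving out Swiss 2, 3, 5, 8 or 22 ended the Meis1 call (adjusted p from 0.0534 to 0.0956), and leaving out any line but Swiss 19 ended that of Pknox1 (0.0568 to 0.10).

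Retinoic acid, made from vitamin A, switches on HOX genes from the 3' end of a cluster. Of 18 listed genes of its pathway 16 were measured, with a median of 0.03. By the class fit 1 rose in preadipose lines, against 0.583% of all genes, and 0 fell, against 0.951%. A limma unadjusted p under 0.05 was seen in 5 of the 16, against 15.6% of all genes. The gene that rose was Cyp26b1, an enzyme that breaks retinoic acid down, with line means of 2559, 2484, 2961 and 2875 in the preadipose lines and 1432, 1055 and 1380.1 in Swiss 3, 5 and 22. Its log2 difference was 0.83 ± 0.09 (SE), with a limma adjusted p of 0.0109, which held with brightness as a block (0.0172) and when each line was left out. The call was lost with arrays centred on their medians (0.42, limma adjusted p = 0.910) and without normalization between arrays (0.29, adjusted p = 0.896). The dim arrays alone gave 0.61 (adjusted p = 0.0663) and the bright ones 0.95 (adjusted p = 0.257), each with a single line in 1 class. Of the listed Aldh1a enzymes, which make retinoic acid, Aldh1a2 and Aldh1a3 were above background in no line. Aldh1a1 was above it in 5 lines, with line means of 110.2, 350.2, 9.3 and 1675 in Swiss 2, 8, 9 and 19. In Swiss 3, 5 and 22 it had 471.1, 1613 and 2485, so its classes overlapped. Rdh10, another enzyme of the list, was above background in all 7 lines. Its line means were 229.1, 257.6, 312.9 and 447.6 in the preadipose lines and 229.4, 199.6 and 265.9 in the others.

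Polycomb proteins keep HOX genes silent and Trithorax proteins keep them active. Of 23 listed Polycomb genes 22 were measured and 21 were above background in all lines, and of 12 Trithorax genes 11 were measured, all above it in all lines. In neither list was a gene called between classes by limma, and the medians were 0.03 and 0.15. An unadjusted p under 0.05 was seen in 6 of 22 Polycomb and 2 of 11 Trithorax genes. The share was 15.6% of all genes and 23.8% of genes above background in all 7 lines. The smallest p in each were those of Rnf2, a ubiquitin ligase (-0.50, limma adjusted p = 0.0622), and Eed, a core subunit of the methyltransferase complex (0.34, 0.0627), and of the demethylase Kdm6a (0.47, 0.102) and the methyltransferase subunit Ash2l (0.30, 0.294). The signs of Eed and Ash2l turned when arrays were centred on their medians in place of quantile normalization. Among the lines, 13 of 22 Polycomb and 10 of 11 Trithorax genes differed by the F test, against 35.8% of all genes and 57.0% of genes above background in all 7 lines, as 21 and 11 of these were.

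The ParaHox and Evx genes, close relatives of the HOX genes, had 4 of 8 above background in no line, Evx2 in all lines and 0 called between classes or among lines by limma (0 at an unadjusted p under 0.05 between classes, against 15.6% of all genes). Evx2, which borders the HoxD cluster, had line means of 259.0, 282.3, 170.9 and 119.2 in the preadipose lines and 197.5, 235.5 and 176.2 in the others. Of 16 listed genes outside HOX that lie beside the clusters, 14 were measured, 12 were above background in all lines and 0 were called between classes by limma, with a median of 0.06. At an unadjusted p under 0.05 there were 3 of the 14, against 15.6% of all genes and 23.8% of genes above background in all 7 lines. The smallest p were those of Hibadh (0.35, adjusted p = 0.0961) and Tax1bp1 (0.22, adjusted p = 0.143), both beside HoxA, with signs opposite to those of Hoxa5 and Hoxa7 that turned when arrays were centred on their medians. Of 10 noncoding RNAs of the clusters 3 were measured. Hoxd3os1, an antisense RNA beside Hoxd3, differed among the lines by the F test, with 331.8, 113.2, 108.5 and 551.3 in Swiss 2, 8, 9 and 19 and 837.9, 157.6 and 123.2 in Swiss 3, 5 and 22, so that high and low lines occurred in both classes. Between classes its log2 difference was -0.15 ± 0.30 (SE).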

How the data were processed

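RNA from 20 samples of 7 clonal Swiss 3T3 lines was measured on a 3′ oligonucleotide expression array, 1 array per sample. Per the labels, RNA was extracted with Trizol and columns, primed with oligo-dT and transcribed into biotinylated RNA. The deposited values are linear intensity per probe set, with the method that summarized and scaled them not given in the sources used here. The members and the gene lists were chosen with earlier results of these data known.

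From the intensity values, log2(intensity + 32) was taken and quantile-normalized over the probe sets that are not controls, with a gene represented by its brightest single-symbol probe set. Scaled intensity multiplies each array to a common mean of 500, taken after dropping the top and bottom 2%. Symbols came from the platform annotation, 34754 of whose gene identifiers matched the RefSeq table. A fold compares the class means of scaled intensity, with lines of the dimmer class below background set to background where "at least" is written.

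The arrays of a line were averaged, and lmFit and eBayes of limma 3.58.1 (R 4.3.3) compared the 7 line means. Differences among lines used limma's moderated F test on the 20 arrays. P-values were adjusted over all 18193 genes by Benjamini-Hochberg, at a threshold of 0.05. The tests were tested on simulated data. Values of every array were given for the gene called between classes and the 12 HOX genes with the highest line mean. They were also given for the 8 others with the largest range of line means. From other lists the genes called were named, or else up to 2 with the smallest p. Aldh1a1, Aldh1a2, Aldh1a3, Rdh10 and Evx2 were named outside this rule. The number of clones, 4 against 3, limits the precision of the class comparison, and the number of arrays that of the comparison among lines. Alternatives covered the pseudocount, normalization, background filter, probe set choice, brightness, replicate number, and each array and line left out.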

Additional observations from a re-analysis of the deposited data

Results flagged for a closer look

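Hoxb7 in Swiss 2 stood apart from the other preadipose lines. Its line mean of scaled intensity there was 115.4, while Swiss 8 read 48.4, Swiss 9 49.0 and Swiss 19 50, a gap of 0.977 of the range of the 4 lines. All 4 values were below the background of their line, which was 144.4 in Swiss 2. Chance flags about 1 in 20 such groups of lines.

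The rule left out 3 probe sets that carry a pair of HOX symbols. Of these, the one for Hoxb8 and Hoxb7 was above background in 1 line, Swiss 22, at 126.6. The 2 for Hoxd4 and Hoxd3 were highest in Swiss 3, at 417.0 and 167.0, and above background in 6 and 3 lines. Which of the paired genes gave the signal cannot be told from these probe sets.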

How the results depend on the processing

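The count of 1 HOX gene called between classes became 0 with a pseudocount of 100, with arrays centred on their medians, without normalization, when arrays were scaled before the pseudocount, with the brightness block, with the spike level as a covariate and within the dim or the bright arrays, and became 6 with the line as a random block. Left-out arrays and lines gave 0 to 1. The count over all 18193 genes was 279 in the main fit. It ran from 0 to 2061 over the 13 alternative settings and from 52 to 464 with arrays or lines left out. Hoxa7 passed in 5 of 13 alternative settings (adjusted p from 4.23e-05 to 0.910), in 16 of 20 fits without an array and in 1 of 7 without a line, with a negative difference each time. The 8 HOX genes with an unadjusted p under 0.05 kept their negative sign in every setting run.

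Centring on medians gave 24 HOX genes among the 7 lines, 21 among preadipose lines and 15 among non-adipogenic lines (75.3%, 68.7% and 59.1% of all genes), 3 lower at an unadjusted p under 0.05 (3.51%) and 1 with preadipose line means below all others (2.45%). No normalization gave 18, 17 and 17 (74.4%, 70.0% and 63.4%), with 1 lower (2.02%), 2 below all others (2.78%) and 33 negative (90.6%). The preadipose count was 3 with a pseudocount of 100, and the non-adipogenic count 2 when scaled before the pseudocount or with the spike covariate, which left 3 lower at an unadjusted p. Within the dim arrays, where Swiss 3 is the only non-adipogenic line, 5 were lower and 1 higher at an unadjusted p (10.1% and 9.27% of all genes) and 14 were below all others (30.7%). Within the bright arrays, where Swiss 19 is the only preadipose line, 1 was lower (4.28%) and 16 below all others (29.7%), and with a class of 1 line these counts do not bear on whether a call holds. Left-out arrays and lines gave 2 to 6 among preadipose lines and 0 to 4 among non-adipogenic lines. The sign turned with median centring and without normalization for Eed (-0.042 and -0.17), Ash2l (-0.19 and -0.32), Hibadh (-0.14 and -0.27) and Tax1bp1 (-0.26 and -0.39). The cause was not tested.

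Arrays with the same replicate number did not deviate together (57 pairs, highest correlation 0.094), so the numbers do not pair them. With the replicate block 3 genes were called among preadipose lines and Hoxa7 had an adjusted p of 0.0481. Counts above background in all lines ranged from 11 to 14 and in none from 7 to 13 over other background rules. Signal near background limits what can be said of the 9 HOX genes above it in no line.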
